A study of Mus musculus with 24 samples.

Results

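Formalin-fixed, paraffin-embedded (FFPE) tissue was compared with flash-frozen tissue across 4 mouse organs, brain, heart, kidney and liver, by H3K4m3-Seq. The members of the comparison were the 4 FFPE and the 4 frozen columns of the authors' table of normalized values, all 8 columns that it holds, and all genes with a mean log2 value of at least 0, which were 25680 of the 27179 genes listed. Each gene's difference is the FFPE value minus the frozen value of the same organ on the log2 scale, and a relative difference is that value minus the median over all tested genes, so that a relative difference of 0 is the median gene. The question was which kinds of genes held a larger or smaller share of the reads after FFPE preservation.

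H3K4m3 is histone H3 trimethylated at lysine 4, a mark laid down by COMPASS-family methyltransferases at the start sites of active and poised genes, most broadly at promoters rich in CpG dinucleotides. In chromatin immunoprecipitation, fragments carrying the mark are enriched over the rest of the genome, so genes without the mark still collect some reads from the background. FFPE blocks are the usual form in which pathology archives keep tissue, and their chromatin has been crosslinked far more heavily than that of freshly frozen tissue.

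The labels describe 24 samples, of which 12 are H3K4m3 libraries (4 frozen and 8 FFPE) and 12 are input libraries, which were not used here. In each organ the frozen group was tissue frozen at harvest and the FFPE group tissue fixed in formalin and embedded in paraffin. The labels name no other treatment for any group. The labels give no strain, sex, age or animal for any of them and do not say that an organ's frozen and FFPE tissue came from the same mouse. Frozen cores were crosslinked briefly with formaldehyde and quenched, whereas FFPE tissue was freed of paraffin, rehydrated and heated in extraction buffer, and both were then sheared by ultrasound and immunoprecipitated in the same way. Kits from 2 makers are named for the libraries without saying which sample had which, and the FFPE samples numbered 2 carry a later date in the labels than all frozen samples. Preservation, chromatin preparation and any kit or date difference therefore cannot be told apart. Each organ has 2 FFPE samples in the labels but 1 FFPE column, and neither source says whether that column is 1 of them or their sum. A column is a library in what follows.

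Recovered depth ran from 1792394 reads in frozen heart to 5275085 in FFPE kidney, with more reads in FFPE than in frozen tissue for each organ. Where no read was counted, up to 3 reads remain possible, which are 0.537 to 1.69 reads per 1e6 reads of scaled library size. CPM in what follows is the deposited value without its log, on that same scale but with its 0.5-read offset included. Organ labels were checked against marker genes. In frozen tissue the median neuron marker stood 1.96 higher on the log2 scale in brain than in the other organs, the median sarcomere gene 2.04 higher in heart, the median tubule gene 2.73 higher in kidney and the median plasma protein gene 3.93 higher in liver. Each of these lists was also highest in its own organ in FFPE tissue, while the 8 podocyte genes did not stand above the other organs in kidney of either kind (-0.02 and -0.03). Both Xist and the Y-linked gene Kdm5d had reads in all 8 libraries.

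Differences were tested in 1 limma model with organ and preservation as terms, and a gene is said to pass at a Benjamini-Hochberg adjusted p under 0.05. Of the 25680 genes, 4240 (16.5%) passed as higher in FFPE and 5477 (21.3%) as lower. The median gene differed by 0.18, so the split depends on where 0 is set: with each library centred on its own median, 3027 genes (11.8%) passed as higher and 6241 (24.3%) as lower. Relative to the median gene, 2053 of the passing genes were more than 2-fold higher and 2496 more than 2-fold lower. The same direction in all 4 organs was common, with 6191 genes above their organ's median gene in every organ and 7401 below it in every organ. Since no label ties a library to its own animal, the p-values rest on variation among these 8 libraries only, and that variation may be technical. Calls were fewer when an organ was left out, down to 2296 higher and 3748 lower without kidney, and numbered 2776 and 2751 higher without brain and without heart.

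Relative to the median gene, genes with high frozen signal were lower in FFPE and genes with low frozen signal were higher, in each of the 4 organs. To keep a library's own counting error out of the grouping, genes were put into 10 equal classes for each organ by their frozen level in the other 3 organs. The mean over organs of the class medians of the relative difference fell in steps from 0.85 ± 0.14 (SD over 4 organs) in the lowest class, through 0.73, 0.67, 0.58, 0.35, 0.00, -0.29, -0.44 and -0.55, to -0.72 ± 0.21 in the highest. In the highest class, liver stood lowest at -1.02 and brain highest at -0.57, with heart at -0.59 and kidney at -0.71. In the lowest class the values ran from 0.70 in kidney to 1.02 in brain. Grouped by the mean frozen level of all 4 organs, whose median was 1.32 CPM in the lowest class and 122.7 CPM in the highest, 1942 of the 2568 genes of the highest class passed as lower and 36 as higher. Of the 2568 genes of the lowest class, 742 passed as higher and 0 as lower. Frozen values enter both this grouping and the difference, so these counts are given as a description. The 0 of the lowest class stayed at 0 at an unadjusted limma p under 0.05, and with libraries centred 603 of its genes passed as higher. Neither count is a check on direction. Mean frozen log2 values in that class ran from -2.15 to 1.04. The filter used the mean of all 8 libraries, so genes with a frozen mean under 0 were kept only through higher FFPE values. With so few frozen reads, a gene could hardly pass as lower.

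**Figure D1:**
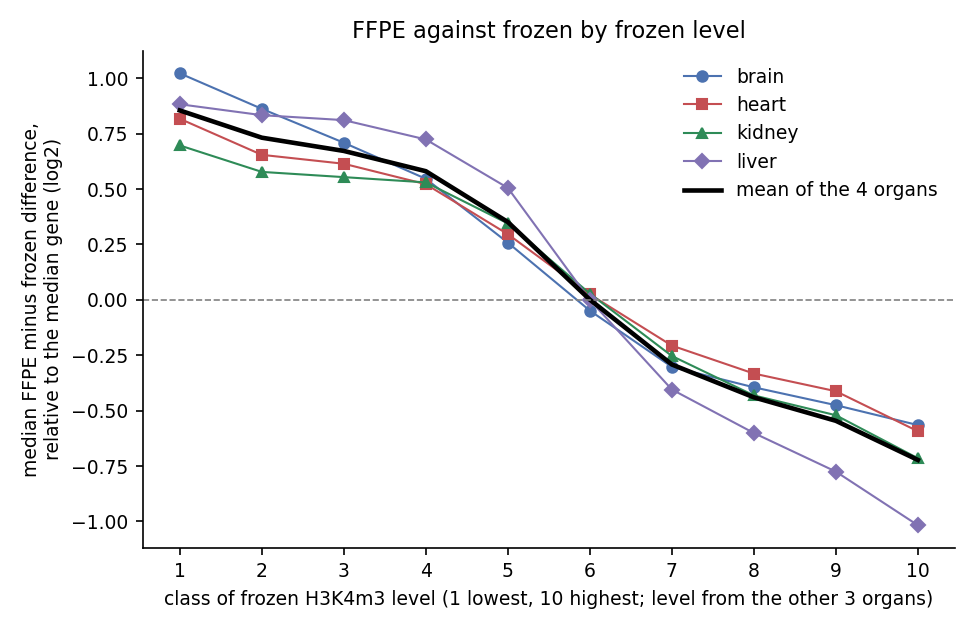
Median FFPE minus frozen difference on the log2 scale, relative to the median gene (vertical axis), in 10 classes of frozen level from lowest to highest (horizontal axis), with a line for each organ and a thick line for their mean. All 4 organs descend from between 0.70 and 1.02 in the lowest class to between -0.57 and -1.02 in the highest.

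Expressed as reads, the lower 5 classes together held 13.3%, 11.3%, 11.6% and 11.5% of the reads over nuclear genes in the frozen libraries of brain, heart, kidney and liver. In the FFPE libraries they held 17.8% (heart) to 20.0% (brain), so every FFPE library lay above every frozen one. The highest class held between 31.7% and 35.9% of nuclear-gene reads in the frozen libraries and between 26.4% and 27.7% in the FFPE libraries. With mitochondrial genes counted, that class rose from 36.9% frozen to 40.0% FFPE of reads over tested genes in heart. It fell from 34.4% to 31.0% in brain, from 36.9% to 35.7% in kidney and from 37.8% to 30.5% in liver. The 4 classes just below the top kept nearly the same share of nuclear-gene reads, 52.6% to 55.01% frozen and 53.6% to 54.5% FFPE. The spread between genes was correspondingly narrower in FFPE: the interquartile range of the log2 values was 0.69, 0.72, 0.71 and 0.63 times the frozen one in brain, heart, kidney and liver. These ratios were not taken at equal depth. Frozen libraries were shallower in every organ, and counting error widens the spread of genes with few reads. Quantile normalization, which gives all 8 libraries 1 common distribution, took the lowest class to -0.04 and the highest to -0.17. That setting removes by construction any difference in the shape of the distributions.

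Promoter sequence followed the same order. A CpG is the dinucleotide CG, read alike on both strands, and the promoters of most constitutively active genes are rich in it. The 250 bases before the start that the RefSeq promoter table gives are shown for 6 members named below, with CG in capitals and the rest in lower case, 5′ to 3′ on the gene's strand, on build GRCm38.p6. For Cox7a2, Mrps17 and Rps9 that start lies inside the full span of the gene, so part or all of their windows overlap the gene. The first 3 belong to classes that lost share and the last 3 to classes that gained it.
Cox7a2, chr9:79759854-79760103, minus strand: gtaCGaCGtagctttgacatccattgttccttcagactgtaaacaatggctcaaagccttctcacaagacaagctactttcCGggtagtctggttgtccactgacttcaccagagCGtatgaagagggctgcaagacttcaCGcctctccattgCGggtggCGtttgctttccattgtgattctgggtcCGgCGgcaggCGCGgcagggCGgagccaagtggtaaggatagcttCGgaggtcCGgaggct
Mrps17, chr5:129715247-129715496, plus strand: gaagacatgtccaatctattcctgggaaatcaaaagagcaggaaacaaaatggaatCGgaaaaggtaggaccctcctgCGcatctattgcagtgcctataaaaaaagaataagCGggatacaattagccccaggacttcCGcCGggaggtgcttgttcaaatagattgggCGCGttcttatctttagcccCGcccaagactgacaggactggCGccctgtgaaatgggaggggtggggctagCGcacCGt
Rps9, chr7:3703791-3704040, plus strand: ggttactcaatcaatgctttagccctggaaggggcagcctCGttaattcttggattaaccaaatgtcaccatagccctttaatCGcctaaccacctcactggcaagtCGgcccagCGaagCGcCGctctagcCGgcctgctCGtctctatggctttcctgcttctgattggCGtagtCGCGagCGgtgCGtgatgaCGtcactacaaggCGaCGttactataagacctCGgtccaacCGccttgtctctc
Vmn1r253, chr7:22329718-22329967, minus strand: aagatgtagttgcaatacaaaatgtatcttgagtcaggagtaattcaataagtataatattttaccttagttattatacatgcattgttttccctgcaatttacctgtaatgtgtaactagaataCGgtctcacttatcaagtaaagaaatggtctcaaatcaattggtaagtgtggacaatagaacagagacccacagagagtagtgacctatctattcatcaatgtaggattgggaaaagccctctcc
Sprr2a2, chr3:92250397-92250646, plus strand: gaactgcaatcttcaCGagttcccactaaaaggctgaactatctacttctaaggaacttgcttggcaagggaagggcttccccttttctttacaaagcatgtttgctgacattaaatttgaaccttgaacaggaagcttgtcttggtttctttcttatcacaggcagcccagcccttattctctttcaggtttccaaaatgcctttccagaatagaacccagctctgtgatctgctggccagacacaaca
Col7a1, chr9:108953336-108953585, plus strand: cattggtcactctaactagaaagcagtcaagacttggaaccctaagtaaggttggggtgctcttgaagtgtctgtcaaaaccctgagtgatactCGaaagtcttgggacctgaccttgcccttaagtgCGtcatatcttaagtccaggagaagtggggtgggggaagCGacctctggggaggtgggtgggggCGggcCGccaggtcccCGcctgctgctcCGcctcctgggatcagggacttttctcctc
These windows hold 14 CpG in Cox7a2, 11 in Mrps17, 18 in Rps9, 1 in Vmn1r253, 1 in Sprr2a2 and 7 in Col7a1. Over 16657 tested protein-coding genes with a promoter in the table the median was 11, and 93.4% held at least 1. In windows that also include the 50 bases after the start, the 4269 coding genes with 0 to 4 CpG had a median relative difference of 0.59, with 1147 passing as higher and 66 as lower. The 3778 genes with 20 to 29 CpG had -0.54, with 250 higher and 1548 lower, and the 2950 genes with 30 or more had -0.45. Relative to genes of the same frozen level class, these medians shrank to 0.13, -0.06 and 0.08.

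Functional classes spread on both sides of the median gene. Of 68 classes, 26 had a median below the median gene in all 4 organs, 23 had one above it in all 4, and 19 differed in sign between organs. Liver was the lowest organ in 25 of the 26. The plot of class medians by organ shows the 33 classes described here, and the other 35 had relative medians from -0.67 for chaperones to 0.71 for defensins. No test was run on a class, and each count of passing members is to be read against 16.5% higher and 21.3% lower among all genes. Where a class is given with 0 members in a direction, the count at an unadjusted limma p under 0.05 was 0 too, except for 1 higher histone gene, 1 higher liver plasma protein gene and 1 lower protocadherin. Members that passed and are named only to complete a count were chosen after their values were seen: Eif2ak1, Snord1b, Mir3101, Il17d, Slc12a3, Pax8, Cdh16, Gad1, Rbp4, Tie1, Magi2, Synpo, Nphs1, Podxl and Ptpro.

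**Figure D2:**
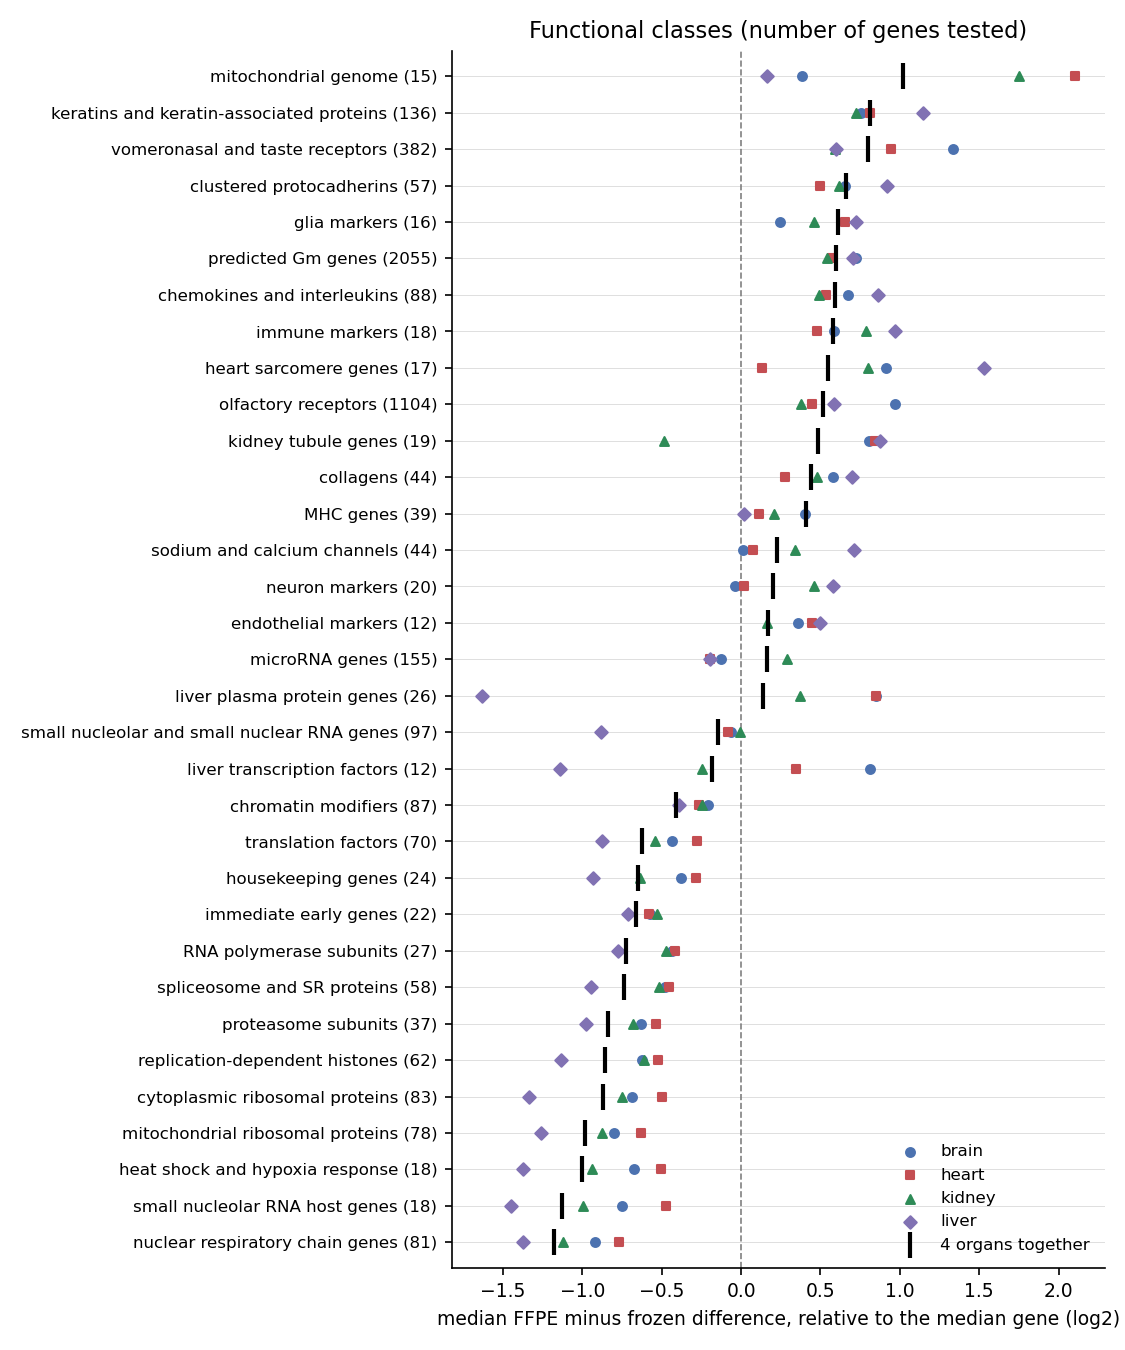
Median FFPE minus frozen difference (log2, relative to the median gene) of 33 functional classes, with the number of genes tested in parentheses, a coloured point for each organ and a black bar for the 4 organs together. Nuclear respiratory chain genes lie lowest at -1.18 and the mitochondrial genome highest at 1.02, where heart and kidney stand far above brain and liver. Points are relative to each organ's own median gene and bars to that of the 4 organs together, so bars can lie lower than points.

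Of 81 nuclear genes for respiratory chain subunits, 66 passed as lower and 0 as higher, with a relative median of -1.18 and 71 members below the median gene in every organ. Their share of all reads was 0.40% to 0.48% in the frozen libraries and 0.24% to 0.27% in the FFPE libraries, and these ranges do not overlap. Uqcrq, a subunit of the cytochrome bc1 complex (chromosome 11, 53427922 to 53430831), had 76.3, 70.8, 104 and 146 CPM in frozen brain, heart, kidney and liver and 29.1, 31.7, 28.9 and 45.2 CPM in FFPE. All 4 FFPE values lay below all 4 frozen values, a difference of -1.52 ± 0.17 (SE, 4 against 4 libraries, limma adjusted p = 0.000116), and the gene overlaps Gdf9, so some reads may belong to that neighbour. Cox7a2, a subunit of cytochrome c oxidase, ran from 55.6 to 60.5 CPM frozen and from 14.2 to 24.0 FFPE, a difference of -1.67 ± 0.20 (adjusted p = 0.00016 in limma).

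Mitochondrial ribosomal protein genes, which build the organelle's own translation machinery, passed as lower for 57 of 78 and as higher for 0, with a relative median of -0.98. Mrps17, a protein of the small subunit (chromosome 5, 129715450 to 129718712), had 54.2, 77.6, 76.9 and 84.5 CPM in frozen brain, heart, kidney and liver. In FFPE it had 25.7, 15.5, 19.6 and 27.2 CPM, all below the lowest frozen value, a difference of -1.75 ± 0.21 (limma adjusted p = 0.000161). Heart had the lowest FFPE value of this gene although its frozen value was near that of kidney. Mrpl9, of the large subunit, differed by -1.18 ± 0.15.

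The 15 tested genes of the mitochondrial genome went the other way. Mitochondrial DNA is not wrapped in histones. All 15 passed as higher on the deposited scale, but 4 passed with libraries centred, and the organs differed: the relative medians were 0.39 in brain, 2.10 in heart, 1.75 in kidney and 0.17 in liver. They took 4.01%, 4.06%, 3.33% and 3.08% of the reads over tested genes in frozen brain, heart, kidney and liver, and 6.17%, 17.1%, 11.8% and 5.04% in FFPE. ND3, a subunit of respiratory complex I, rose from 545, 532, 386 and 431 CPM to 1306, 3805, 2204 and 809 CPM, a difference of 1.88 ± 0.26 (limma adjusted p = 0.000283). ND4L, another subunit of that complex, differed by 1.42 ± 0.26 (limma adjusted p = 0.00501). ND5, the gene of highest frozen level among those that passed as higher, differed by 1.20 ± 0.36, and its adjusted p of 0.0188 became 0.246 with libraries centred, 0.0911 without heart and 0.106 without kidney. The class median of 1.02 was 0.69 without heart, 1.31 without brain and 0.08 under quantile normalization, and ND5 overlaps ND6.

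Most genes of cytoplasmic translation were lower too. Of 83 cytoplasmic ribosomal protein genes, 58 passed as lower and 1 as higher, with a relative median of -0.87 that ran from -0.50 in heart to -1.33 in liver. Rps9, of the small subunit (chromosome 7, 3703954 to 3706897), had 76.7, 89.5, 86.8 and 123.0 CPM in the frozen libraries and 30.2, 39.4, 33.5 and 43.5 CPM in FFPE. The order of the organs was the same in both, with brain lowest and liver highest, while every FFPE value lay below every frozen one, a difference of -1.35 ± 0.16 (limma adjusted p = 0.000138). Rpl38, of the large subunit, differed by -1.38 ± 0.17. The member that rose was Rpl39l, a copy of Rpl39 known from testis, which had 0.282 to 2.48 CPM frozen and 6.54 to 8.42 CPM FFPE. Ribosomal proteins have many processed copies, and reads shared with them make single values uncertain.

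Translation factors passed as lower for 31 of 70, with a relative median of -0.62. Eif1, which guards start codon choice, had 153 to 277 CPM frozen and 68.4 to 78.8 FFPE, a difference of -1.33 ± 0.16 (limma adjusted p = 0.00016). The 2 that passed as higher were Eif4e1b, a germ cell form of the cap-binding protein, at 1.14, and the kinase gene Eif2ak1 at 0.91. Their calls were lost without kidney (adjusted p = 0.0947 and 0.0942 in limma), and that of Eif2ak1 also without heart at 0.0605.

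**Figure D3:**
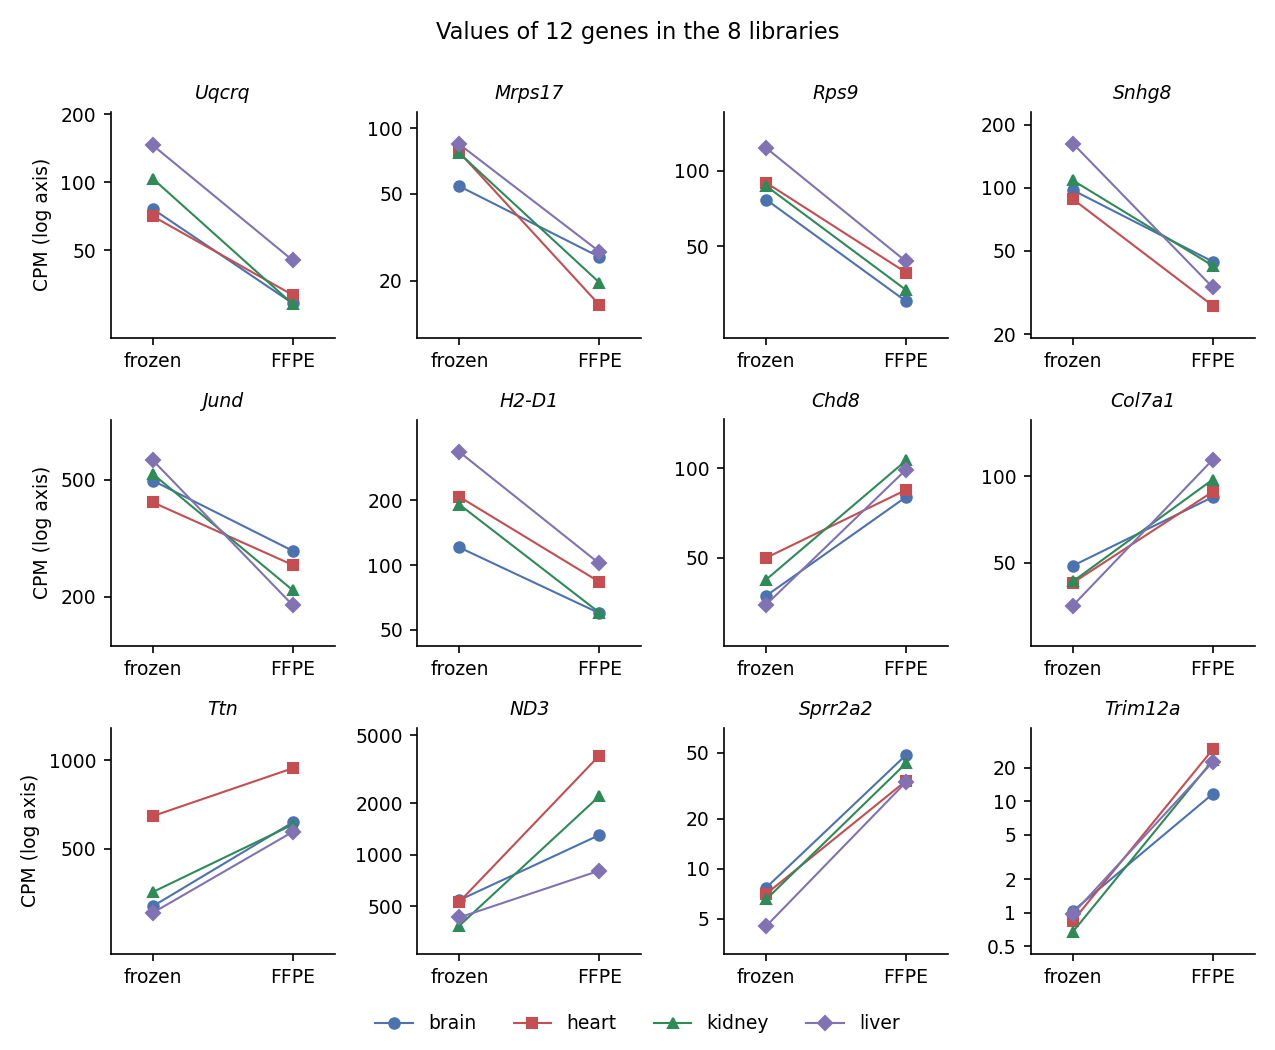
CPM on a log axis for 12 genes in the frozen and the FFPE library of each organ, each organ's pair joined by a line. The upper 6 genes are lower in all 4 FFPE libraries than in the frozen library of the same organ, from Uqcrq to H2-D1, and the lower 6 are higher, with Ttn highest in heart in both.

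Of 37 proteasome subunit genes, 27 passed as lower, with a relative median of -0.84. Psmb10, an inducible catalytic subunit, had 128, 179, 187 and 218 CPM in frozen brain, heart, kidney and liver and, in FFPE, 60.8 CPM in brain, 96.9 in heart, 77.2 in kidney and 75.04 in liver, a difference of -1.19 ± 0.15 (limma adjusted p = 0.000164) without overlap between the groups. Psma5, of the alpha ring, differed by -1.17 ± 0.17. The exception was Psmd3, of the regulatory particle, with 7.27, 13.3, 25.9 and 14.3 CPM frozen and 23.8, 30.5, 38.6 and 37.2 CPM FFPE, higher by 1.22 ± 0.25 (limma adjusted p = 0.00255). Its frozen level was far under the class median of 57.0 CPM, and FFPE brain lay below frozen kidney. Other lists of protein turnover were more mixed, with 30 of 79 ubiquitin conjugating and specific peptidase genes lower and 10 higher, and 38 of 135 F-box and Trim genes lower and 18 higher at a relative median of -0.18.

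Heat shock and hypoxia response genes passed as lower for 15 of 18, with a relative median of -1.0 and 17 of them below the median gene in every organ. Hsph1, a chaperone of the Hsp110 family, had 98.3 to 162 CPM frozen and 51.7 to 81.8 FFPE, a difference of -1.0 ± 0.15 (limma adjusted p = 0.000404). Dnajb1, a partner of Hsp70, differed by -0.94 ± 0.15. Immediate early genes, which are transcribed within minutes of a stimulus, passed as lower for 15 of 22, with a relative median of -0.66. Jund, a subunit of the AP-1 factor, had 498, 420, 525 and 584 CPM frozen and 287, 256, 210 and 187 CPM FFPE. Liver was highest frozen and lowest in FFPE, all FFPE values lay below all frozen ones, and the difference was -1.12 ± 0.17 (limma adjusted p = 0.000377). Ier2 differed by -1.06 ± 0.16. The 24 housekeeping genes had a median of -0.65, with 13 lower and 1 higher, the RNA polymerase gene Polr2a, while Tpt1 differed by -1.56 ± 0.16.

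Spliceosome and SR protein genes passed as lower for 34 of 58 and as higher for 0, with a relative median of -0.74. Sf3b5, a small protein of the U2 particle whose gene spans 734 bases, had 101 to 122 CPM frozen and 27.1 to 44.3 FFPE, a difference of -1.65 ± 0.18 (limma adjusted p = 0.000114). Snrpa, of the U1 particle, differed by -1.33 ± 0.18. RNA polymerase subunit genes passed as lower for 14 of 27, led by Polr2i at -1.40 ± 0.16. The 2 that passed as higher were Polr3b at 0.85 ± 0.20 and Polr2a at 0.62 ± 0.17, the large catalytic subunits of polymerases III and II. The call of Polr2a was lost without heart (adjusted p = 0.0686 in limma), without kidney (0.0612) and with libraries centred (0.0563).

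Chromatin modifiers were split, with 30 of 87 lower, 14 higher and a relative median of -0.41 (35 lower and 9 higher with libraries centred). Eed, a core subunit of the Polycomb complex PRC2, had 146, 179, 154 and 206 CPM frozen and 69.1, 79.5, 63.2 and 65.2 CPM FFPE, a difference of -1.30 ± 0.15 (limma adjusted p = 0.000123). Smarcb1, of the SWI/SNF remodeller, differed by -1.27 ± 0.17. Chd8, a chromodomain helicase, had 37.2, 49.9, 42.2 and 34.7 CPM frozen and 80.1, 84.7, 106 and 99.1 CPM FFPE, so that all FFPE values lay above all frozen ones, by 1.18 ± 0.17 (limma adjusted p = 0.000304). In the longer members of the class, those above its median length of 46248 bases, 10 passed as higher and 9 as lower. In the shorter members 4 passed as higher and 21 as lower.

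Replication-dependent histone genes, short intronless genes in clusters, passed as lower for 34 of 62 and as higher for 0, with a relative median of -0.86. H2bc18 had 98.1 to 109 CPM frozen and 55.7, 54.1, 28.2 and 28.6 CPM in FFPE brain, heart, kidney and liver, a difference of -1.39 ± 0.19 (limma adjusted p = 0.000238). Kidney and liver thus fell further than brain and heart. H1f2, a linker histone gene, differed by -1.03 ± 0.16. These genes are near copies of each other, and no source used here says how reads matching several of them were counted.

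Host genes of small nucleolar RNAs passed as lower for 14 of 18 and as higher for 0, with a relative median of -1.13. Snhg8 had 97.5, 88.3, 108 and 163 CPM frozen and 44.5, 27.4, 42.5 and 33.5 CPM FFPE, a difference of -1.61 ± 0.19 (limma adjusted p = 0.000151). Snhg20 differed by -1.21 ± 0.18. Of 97 small nucleolar and small nuclear RNA genes, 19 (19.6%) passed as lower, led by Snord49b, and 2 as higher, Snora41 and Snord1b. The share that passed as lower was under the 21.3% of all genes. Snora41, which lies inside Eef1b2, had 2 frozen and 50 FFPE reads in all, a ratio at equal depth of 12.1 with an exact 95% counting interval of 3.19 to 103, and lost its call without kidney (adjusted p = 0.0535 in limma), and Snord1b without heart (0.055).

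Of 643 microRNA genes in the table, 155 had enough signal to be tested. Of these 26 (16.8%) passed as lower, under the 21.3% of all genes, and 3 as higher. Mir2861, a gene of 82 bases (chromosome 2, 32712807 to 32712888), had 16.8, 17.8, 13.3 and 15.1 CPM frozen and 2.75, 6.89, 2.59 and 2.22 CPM FFPE. Heart was the highest FFPE library and still below every frozen one, and the difference of -2.28 ± 0.40 (limma adjusted p = 0.000891) rested on 138 frozen and 59 FFPE reads. Mir1938, inside Ifrd1, differed by -2.08 ± 0.28, and Mir574, which overlaps Fam114a1 and Tlr6, by -2.22 ± 0.57, with its kidney value barely changed at 5.19 and 4.74 CPM. The 3 that rose were Mir497, Mir5125 and Mir3101, by 1.76, 2.01 and 2.08, and all 3 calls were lost without brain, without kidney and without liver (adjusted p = 0.0563 to 0.213 in limma, with that of Mir5125 lost without heart too). The class median was 0.16, but most members had few reads. It was -0.09 without kidney and -0.96 in the 71 members with at least 20 reads in each preservation type. The reads are of DNA at these loci, and short genes inside other genes share theirs with the host.

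Receptor families known mainly from the sensory epithelia had medians above the median gene. Of 382 vomeronasal and taste receptor genes, which detect pheromones and tastants, 120 passed as higher and 0 as lower, with a relative median of 0.80 that ran from 0.59 in kidney to 1.34 in brain. The median was 0.51 in the 245 members with at least 20 reads in each preservation type. The class median frozen level was 2.54 CPM, so members had little room to pass as lower. Of 1104 olfactory receptor genes, 125 passed as higher and 1, Olfr1402, as lower, with a relative median of 0.51. The olfactory share of 11.3% was under that of all genes, and their median relative to genes of equal frozen level was -0.13. In the 679 olfactory receptor genes with at least 20 reads in each preservation type, the relative median was 0.25. Olfr213 had 1.37 to 1.98 CPM frozen and 7.07 to 11.2 FFPE, a difference of 2.42 ± 0.47 (limma adjusted p = 0.00174). The call of Olfr1402 was lost without heart, kidney or liver (adjusted p = 0.0524 to 0.0727 in limma).

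Keratin and cornified envelope genes, products of skin and hair, passed as higher for 35 of 136 and as lower for 1, with a relative median of 0.81. The median was 0.68 in the 87 members with at least 20 reads in each preservation type. Sprr2a2, a cornified envelope protein (chromosome 3, 92250647 to 92257304), had 7.69, 7.05, 6.54 and 4.51 CPM frozen and 48.5, 33.8, 43.2 and 33.3 CPM FFPE, a difference of 2.63 ± 0.27 (limma adjusted p = 9.6e-05), and has near-identical neighbours that may share its reads. The exception was Krt10, with 110 to 181 CPM frozen and 68.1 to 85.1 FFPE. Clustered protocadherins, adhesion proteins that give neurons their surface identity, passed as higher for 23 of 57 and as lower for 0, with a relative median of 0.66. Pcdhgb8 had 7.05 to 11.5 CPM frozen and 20.0 to 46.7 FFPE, and RefSeq lists it as a transcribed pseudogene that overlaps other genes of its cluster. Of 2055 genes with predicted Gm symbols, 593 passed as higher and 149 as lower, with a relative median of 0.60. The median was 0.42 in the 1548 with at least 20 reads in each preservation type. Gm2446, which overlaps Fam177a2, and Gm7102, which overlaps Gm6020, were among the 10 largest losses of all genes, at -2.27 ± 0.31 and -2.19 ± 0.24.

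Some genes had almost no frozen reads in any organ. With at most 3 reads in each frozen library and at least 20 in each FFPE library there were 27 genes (0.105% of those tested), and 0 genes met the reverse. These limits are in reads, and FFPE libraries were deeper in every organ. The reverse was therefore the stricter rule, and the counts of 27 and 0 are not on equal terms. Of the 22 with coordinates, 16 lay on chromosome 7, where 2167 genes were tested, and 14 lay within 1 Mb of another. How many of all tested genes have such a neighbour was not counted, so the 14 are only a description. Of the 27, 7 were Vmn1r receptor genes. Vomeronasal and taste receptors together were 382 of the 25680 tested genes, and Vmn1r genes were not counted apart. Vmn1r132 (chromosome 7, 21612745 to 21615147) had 0, 2, 0 and 0 reads in frozen brain, heart, kidney and liver and 111, 45, 74 and 37 in FFPE, a ratio at equal depth of 64.8 with an exact 95% counting interval of 17.8 to 538. Gm10665, also among the 27, had 0 reads in all 4 frozen libraries and was at least 19.9-fold higher, against a limit of 3 reads over the group. Vmn1r253, whose promoter is printed above, had 0 frozen reads too and was at least 21.0-fold higher, but with 15 reads in FFPE heart it fell outside the 27. Further along chromosome 7, Trim12a, of the antiviral Trim5 family, had 2, 1, 1 and 2 frozen reads and 61, 95, 130 and 96 FFPE reads, and it overlaps Gm15133, which was among the 27 as well. Gm4567 went from 2 frozen to 273 FFPE reads over the 4 organs, a ratio of 66.3 (18.2 to 550 by the same interval). On chromosome 4, Skint4, an immunoglobulin-like gene of skin, had 2, 1, 0 and 0 frozen reads and 102, 75, 52 and 62 FFPE reads. These families hold near-identical copies, and the labels give no strain.

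Large gains also occurred among genes with a mean frozen log2 of at least 3. That limit lies under the median tested gene of each frozen library, which was 4.28 in liver to 4.53 in brain. 5830417I10Rik, a transcribed pseudogene (chromosome 3, 88777057 to 88829371), had 14.8, 10.4, 15.1 and 11.6 CPM frozen and 117, 98.8, 81.5 and 95.1 CPM FFPE, a difference of 2.93 ± 0.20 (limma adjusted p = 1.37e-05). Every FFPE value was more than 5 times every frozen one. Zfp992, a zinc finger gene, differed by 2.42 ± 0.19. Ifit3, an interferon-induced gene, had 5.20, 10.4, 7.89 and 11.6 CPM frozen and 21.0, 32.6, 78.6 and 60.1 CPM FFPE, higher by 2.34 ± 0.29, with the largest rise in kidney.

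Of 44 collagen genes, 25 passed as higher and 0 as lower, with a relative median of 0.44. The class median frozen level was 33.2 CPM, and the median gene length was 114410 bases. Col7a1, the anchoring fibril collagen of skin (chromosome 9, 108953586 to 108984875), had 48.8, 42.6, 43.1 and 35.5 CPM frozen and 84.7, 88.3, 97.4 and 114 CPM FFPE. All FFPE values lay above all frozen ones, by 1.18 ± 0.17 (limma adjusted p = 0.000355), and liver, lowest frozen, was highest in FFPE. Col6a5 had 21.8 to 28.6 CPM frozen and 54.7 to 58.9 FFPE, a difference of 1.13 ± 0.18. Relative to genes of the same frozen level class, collagens had a median of 0.59, the highest of the described classes after the mitochondrial genome.

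Sodium and calcium channel genes passed as higher for 14 of 44 and as lower for 1, with a relative median of 0.23 that ran from 0.01 in brain to 0.71 in liver. Cacna1i, a T-type calcium channel, differed by 0.94 ± 0.21. Cacna1a was the member that passed as lower, and its call was lost without brain, heart or kidney (adjusted p = 0.0587 to 0.153 in limma). Chemokine and interleukin genes passed as higher for 24 of 88 and as lower for 2, Cxcl1 and Il17d, with a relative median of 0.59. The median was 0.47 in the 72 members with at least 20 reads in each preservation type. Il21r had 5.20 to 12.7 CPM frozen and 24.6 to 27.3 FFPE, a difference of 1.40 ± 0.29. The call of Cxcl1 was lost without heart and without liver (adjusted p = 0.0868 and 0.0939 in limma), and that of Il17d without brain, heart or kidney, at 0.0627 to 0.102.

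Genes of the major histocompatibility complex, which present antigens, were split, with 9 of 39 higher and 6 lower (5 and 10 with libraries centred). H2-D1, a classical class I gene (chromosome 17, 35263094 to 35267497), had 121, 208, 191 and 336 CPM frozen and 59.6, 83.4, 60.0 and 102 CPM FFPE, a difference of -1.43 ± 0.15 (limma adjusted p = 0.000114). The nonclassical gene H2-T22 had 13.9, 29.1, 33.6 and 57.5 CPM frozen and 39.0, 82.2, 60.7 and 63.8 CPM FFPE, higher by 1.0 ± 0.22. Class I genes resemble each other closely, so reads may be divided between them.

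Class medians were also taken relative to genes of equal frozen level, a comparison added after the data were seen. Each gene's difference in an organ was set against the median of the genes in its frozen level class, and the result was averaged over organs. Nuclear respiratory chain genes remained lowest of the coding classes at -0.67, followed by replication-dependent histones at -0.57 and mitochondrial ribosomal proteins at -0.51. Host genes of small nucleolar RNAs stood at -0.47. Cytoplasmic ribosomal proteins and proteasome subunits both stood at -0.32. Translation factors at -0.09, housekeeping genes at -0.06 and immediate early genes at 0.11 were near other genes of their level. Chromatin modifiers changed sign to 0.21. Small nucleolar and small nuclear RNA genes stood at -0.79 and microRNA genes at -0.53. Endothelial markers stood at 0.56, sodium and calcium channels at 0.32, and vomeronasal and taste receptors at 0.20.

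**Figure D4:**
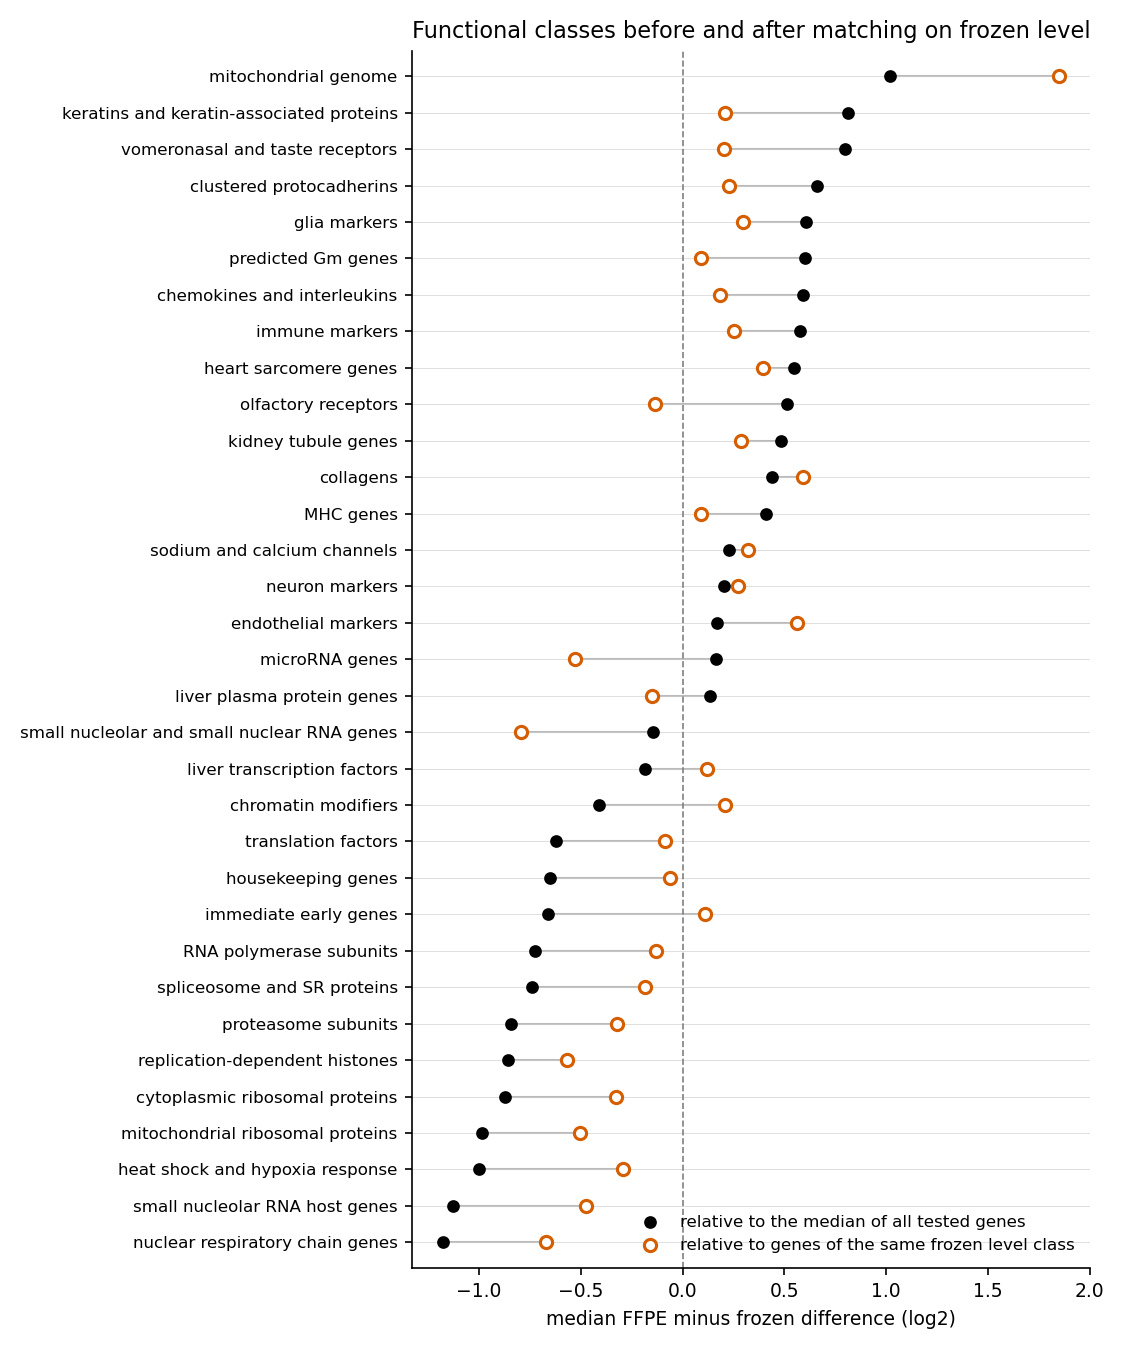
Class medians of the FFPE minus frozen difference (log2) relative to all tested genes (filled points) and relative to genes of the same frozen level class (open points), joined by a line. Most classes move towards 0, among them immediate early genes from -0.66 to 0.11, while collagens move away from it, from 0.44 to 0.59.

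In the upper 3 of 5 frozen level classes, longer genes stood higher than shorter ones. Lengths, as the span of the RefSeq gene, were known for 24252 of the 25680 genes, and these were put into 5 equal classes of length and 5 of mean frozen level. In the highest level class, the shortest genes, of 45 to 3548 bases, had a median relative difference of -1.11 (521 genes), and the longest, from 52749 bases up, had -0.55 (1383 genes). In the middle level class the same contrast was -0.43 against 0.17, and in the class between them -0.85 against -0.26. The lower 2 level classes had no such order: the lowest ran from 0.72 to 0.91 and the next had 0.32, 0.54, 0.58, 0.53 and 0.49 from the shortest to the longest genes. Over all genes, Pearson's r across genes was -0.17 between log2 length and the difference, and 0.15 once the difference was taken relative to genes of the same frozen level. Both values describe genes of the same libraries, which are not independent.

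**Figure D5:**
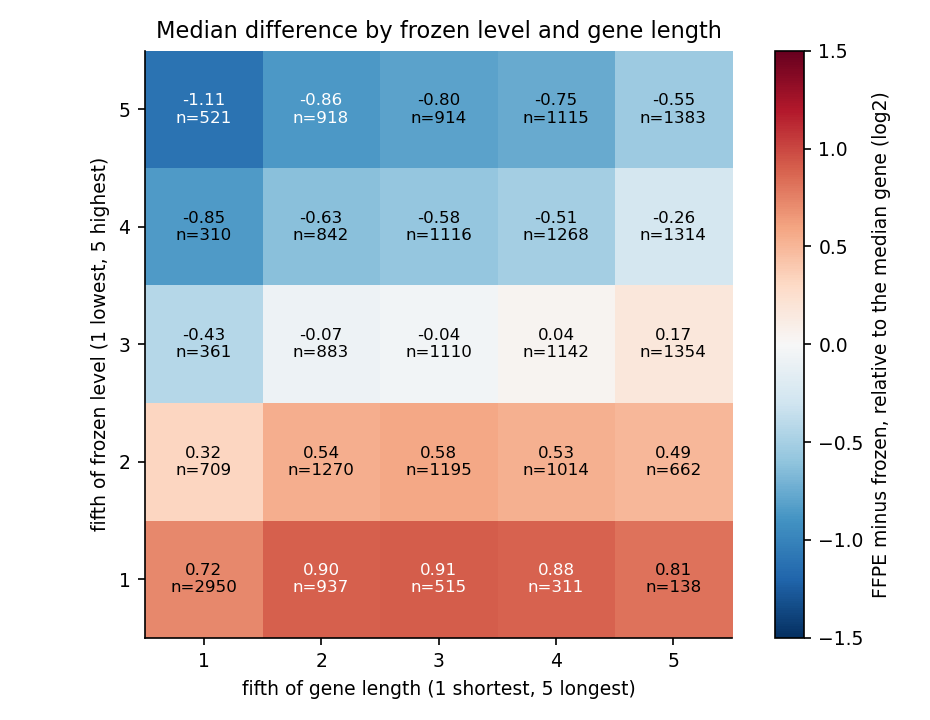
Median FFPE minus frozen difference relative to the median gene (log2, colour and upper number) and number of genes (n) in 5 equal classes of gene length (horizontal) and 5 of mean frozen level (vertical). At the upper 3 levels values increase from left to right, at the top level from -1.11 to -0.55.

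Inside the functional classes the relation to length differed. Among RNA polymerase subunits, Pearson's r across 27 genes between log2 length and the difference was 0.63, and 12 of the 14 members that passed as lower were among the shorter members. Among spliceosome genes r was 0.54 across 58 genes, with a median of -0.99 in the shorter and -0.58 in the longer members. Nuclear respiratory chain genes had r of -0.16 across 81 genes and medians of -1.23 and -1.13. The opposite sign appeared in collagens, with r of -0.35 across 44 genes and medians of 0.58 in the shorter and 0.30 in the longer members. Vomeronasal and taste receptors also had a negative r, -0.29 across 382 genes, with medians of 1.15 and 0.62. No source used here gives the counted part of a gene.

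Of 7 marker lists, 6 had a lower relative median in their own organ than in each of the others. The exception was the podocyte list, which did not mark kidney and had 0.17 there against -0.33 to 0.31 elsewhere. These differences between organs were not tested. Apart from the podocyte list, the lists had higher frozen levels in their own organ. Genes of high frozen level in general were lower in FFPE relative to the median gene, with -0.57 (brain) to -1.02 (liver) in the highest level class. Liver plasma protein genes had a relative median of -1.63 in liver, with 26 of 26 below the median gene, and of 0.85, 0.85 and 0.37 in brain, heart and kidney. Apoa1, the main protein of high-density lipoprotein, had 203 CPM in frozen and 25.3 in FFPE liver, against 21.0 to 45.1 frozen and 17.1 to 24.2 FFPE in the other organs. Its overall call (-1.16 ± 0.35, limma adjusted p = 0.0183) was lost without liver, at 0.0817. Liver transcription factors had -1.14 in liver and 0.81 in brain, and the myeloid and liver factor Cebpa had 539 CPM in frozen and 212 in FFPE liver. Kidney tubule genes had -0.49 in kidney and 0.80 to 0.87 in the other organs. Sarcomere genes had 0.13 in heart and 0.80 to 1.53 elsewhere, and neuron markers -0.04 in brain and 0.02 to 0.58 elsewhere.

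For the 4 lists checked at the outset, the distance between an organ's markers and the other organs was smaller in FFPE. The median neuron marker stood 1.43 above the other organs in FFPE brain (1.96 frozen), the median sarcomere gene 0.99 in FFPE heart (2.04), the median tubule gene 1.42 in FFPE kidney (2.73) and the median plasma protein gene 1.88 in FFPE liver (3.93). The large sarcomere gene Ttn kept its order, at 646 CPM in frozen heart against 303 to 357 elsewhere and 939 in FFPE heart against 571 to 615. Lrp2, an endocytic receptor of the proximal tubule, had 106 CPM in frozen kidney and 49.7 to 57.1 elsewhere, and 129 against 79.8 to 115 in FFPE. The spread between all tested genes was narrower in FFPE too, with interquartile ranges 0.63 (liver) to 0.72 (heart) times the frozen ones. How far that general narrowing accounts for the smaller marker distances was not tested. In bulk tissue, fewer cells of a type and less signal per cell cannot be told apart from it or from each other.

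Across organs together, 2 of 26 plasma protein genes (7.7%), 2 of 12 liver factors (16.7%) and 3 of 8 podocyte genes passed as lower. The first 2 shares lie under the 21.3% of all genes. The 2 plasma protein genes were Apoa1 and Rbp4 (-1.0, lost without liver at an adjusted p = 0.123 in limma). The 2 liver factors were Cebpa (-0.83 ± 0.16) and Onecut1 (-0.86, lost without brain at 0.0622). The podocyte genes included the scaffold gene Magi2 (-0.48, lost without heart and without kidney at 0.0563 to 0.0675) and Synpo (-0.48, lost without brain, heart or liver at 0.0869 to 0.194). As many podocyte genes passed as higher, the slit diaphragm gene Nphs1 at 0.91 ± 0.22, Podxl at 0.50 and Ptpro at 0.62, and the last pair lost their calls without heart, kidney or liver and with libraries centred (adjusted p = 0.0805 to 0.172 in limma). The tubule genes that passed were all higher, 5 of 19 (26.3%, against 16.5% of all genes): Lrp2, Cubn, Slc12a3, Pax8 and Cdh16. Of these, Slc12a3 lost its call without kidney (0.0773), and Pax8 and Cdh16 lost theirs without brain, heart or liver (0.062 to 0.195). The neuron markers that passed were higher too, 3 of 20 (15%), under the 16.5% of all genes. They were Rbfox3, Camk2a and Gad1, with Rbfox3 lost without heart (0.0962), Camk2a without kidney (0.0708) and Gad1 without each of the 4 organs in turn (0.052 to 0.107). Glia markers passed as higher for 7 of 16, led by the myelin gene Mobp at 1.21 ± 0.27, and sarcomere genes for 8 of 17.

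Markers of cell types found in all 4 organs had medians above the median gene. Immune markers passed as higher for 9 of 18 and as lower for 0, with a relative median of 0.58. Itgam, the integrin of macrophages and neutrophils, had 16.4 to 19.6 CPM frozen and 34.2 to 43.6 FFPE, a difference of 1.07 ± 0.20 (limma adjusted p = 0.00154). Endothelial markers passed as higher for 3 of 12, Cdh5, Pecam1 and Tie1, with a relative median of 0.17. The call of Tie1 was lost without heart and without kidney (adjusted p = 0.0613 and 0.0727 in limma). Cdh5, the junctional cadherin of endothelium, had 10.6, 27.9, 16.0 and 10.8 CPM frozen and 23.2, 45.8, 26.7 and 33.5 CPM FFPE, higher by 1.05 ± 0.24, with heart highest in both.

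At the very top of the frozen range, Malat1, an abundant nuclear noncoding RNA, was the gene of highest frozen level that passed as lower. It had 858, 749, 1141 and 951 CPM frozen and 660, 563, 687 and 413 CPM FFPE, and the ranges did not overlap. The difference of -0.68 ± 0.17 (limma adjusted p = 0.00701) was -0.03 relative to genes of its frozen level class.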

How the data were processed

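H3K4m3 ChIP-Seq of 8 libraries (4 organs, frozen and FFPE) was analysed from the authors' deposited table. Its log2 values are deposited as log2 counts scaled by library size (CPM) with a 0.5-read offset, as the whole numbers of reads recovered for 100% of values (within 0.001) show. Per the submitters' processing notes, Bowtie2, featureCounts, limma and build mm10 were used, whose versions, parameters and counted region no source used here gives. Duplicate handling is not stated, and duplicates would make counting intervals too narrow. Intervals and limits cover counting error only.

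Genes with a mean log2 of at least 0 were tested in limma 3.58.1 (R 4.3.3) with organ and preservation terms and an intensity trend, two-sided, with Benjamini-Hochberg adjustment over 25680 genes and 3 residual degrees of freedom. On simulated data of that size, 60 of 100 genes changed 2-fold and 92 of 100 changed 4-fold were recovered, with 5 false calls among 25480 genes. The simulated counts had the same fixed dispersion for all genes, few changed genes and no change that differed between organs. These rates may therefore not hold for the real libraries. Classes were described by counts and medians without a test. Gene types, lengths and promoters came from RefSeq on GRCm38.p6, matched by gene ID for 24252 tested genes.

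The members and gene lists were chosen with earlier results of these data known, and 4 lists (mitochondrial genome, antigen receptor segments, microRNA and antisense genes) were edited after the table was read. Genes were named by rule: the 10 largest losses and gains that passed with 1 sign in all 4 organs, the 10 largest gains with a mean frozen log2 of at least 3, per class the 2 passing members with the smallest p and the strongest exception, and the highest-level gene passing in each direction. Some genes are not reported here. Input libraries were not used here. Alternatives were another scaling, filter, trend or weighting, thinning to 1792394 reads, no organ term and leaving out each organ.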

Additional observations from a re-analysis of the deposited data

Results flagged for a closer look

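In groups of 4 organs, 9 of the 33 class medians and 91 named genes had an organ whose gap to the nearest other organ was larger than Dixon's 95% limit allows, where chance gives about 1 in 20. Liver stood below the other organs for spliceosome and SR proteins (-0.94), RNA polymerase subunits (-0.77), replication-dependent histones (-1.13) and small nucleolar and small nuclear RNA genes (-0.88), all as relative medians. Kidney stood above the others for microRNA genes (0.29) and below them for kidney tubule genes (-0.49). Among genes, Rpl39l stood apart in heart, with a relative difference of 4.85 that rests on 0 frozen reads there, Olfr213 in kidney (2.10) and Il21r in brain (2.25).

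Marker lists had opposite signs in different organs, and these differences were not tested. Kidney tubule genes had a relative median of -0.49 in kidney and 0.87 in liver, liver plasma protein genes -1.63 in liver and 0.85 in brain, and liver transcription factors -1.14 in liver and 0.81 in brain.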

How the results depend on the processing

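Of 91 named genes, 54 kept their call in every alternative and 89 their direction, and 27 of 33 class medians kept their sign in every alternative other than matching on frozen level. Genes passing as higher numbered 2419 without the organ term and 2296 to 3437 with an organ left out, and genes passing as lower 3467 under quantile normalization, 3275 without the intensity trend and 3748 to 5201 with an organ left out.

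Quantile normalization, which forces equal distributions, gave relative medians of -0.84 for nuclear respiratory chain genes, -0.62 for mitochondrial ribosomal proteins, -0.48 for cytoplasmic ribosomal proteins, -0.41 for proteasome subunits, -0.48 for heat shock and hypoxia genes, -0.60 for small nucleolar RNA host genes, 0.20 for vomeronasal and taste receptors and 0.66 for collagens. It reversed chromatin modifiers (0.0683), olfactory receptors (-0.21), the lowest frozen level class (-0.0408), the next (-0.0315), Cacna1a (0.13) and Synpo (0.0282), and took the highest class to -0.17.

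Relative to genes of the same frozen level class, an alternative added after seeing the data, the medians were -0.67, -0.51, -0.32, -0.32, -0.29 and -0.47 for the first 6 classes named above and 0.20 for vomeronasal and taste receptors, with immediate early genes (0.11), chromatin modifiers (0.21) and olfactory receptors (-0.13) reversed.

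The lowest frozen level class was 0.69 without the low-value filter, 1.10 grouped by mean frozen level and 0.41 by FFPE level, and the highest -0.49 by FFPE level. The cause of these changes was not tested. DESeq2 and edgeR were not run on the recovered reads. The organ term compares FFPE and frozen libraries within each organ. Beyond that blocking by organ, no paired analysis was possible because the columns carry no replicate numbers. Depth limits genes with few frozen reads, where 3 reads are 1.18 to 1.69 per 1e6 reads of scaled library size.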
